A study of Homo sapiens with 2 samples.

Results

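The 7 genes described here encode channels that have been linked to the sensing of mechanical force, the TRP channels TRPM3, TRPM7, TRPC1, TRPC5 and TRPV4 and the PIEZO channels PIEZO1 and PIEZO2. They were chosen by name from the 62704 genes counted, and all 7 were present in both split-seq libraries of the study. The rule used names and no measured value, but the set was drawn up with earlier results of these data known. The study asked how the shape of human brain organoids bears on the identity and timing of their cells. The organoids were grown from H9, an established human embryonic stem cell line, and in split-seq the RNA of each cell or nucleus is labelled by a combination of well barcodes. The library of cells held control organoids (CO), made with a commercial kit, of days 45, 55 and 70, together with organoids (DISS) that had been taken apart into single cells at day 45, reaggregated and sampled at days 48, 55 and 70, and constrained organoids (CONS), freed of Matrigel at day 13, embedded in 3% agarose and sampled at day 55. The library of nuclei was made, per the study's methods, from day 45 CO, as whole organoids and as single-cell suspensions, and its label names control, dissociated and embedded material.

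Every barcode of a library carried the same sample name, so that condition, day and organoid could not be assigned. Each library was therefore 1 sample, no test between groups was possible and no p-value is given. The study reported a mild upregulation of TRPM3, TRPC1 and TRPV4, among other genes, in CONS compared with CO. That comparison could not be examined here. The study loaded 60000 cells and 20000 nuclei. The files held 1303455 and 197446 barcodes, of which 20178 cells and 14228 nuclei had over 1000 transcripts, over 500 genes and a mitochondrial share of 20% or less. Their median depth was 2615 transcripts in cells and 3890 in nuclei, but 407 cells of over 50000 transcripts held 28.5% of all transcripts of the kept cells. Clusters built without the 7 genes gave named types for 56.7% of cells and 86.2% of nuclei. The types are choroid plexus-like (1610 cells, 964 nuclei), cortical hem-like (1028 and 311), radial glia (RG)-like (2011 and 3432), dividing (3436 and 2123), intermediate progenitor (IP)-like (772 and 527), excitatory neuron-like (1491 and 4065) and Cajal-Retzius (CR)-like (964 and 843), and 135 cells were dividing IP-like. Some of these types are mixed in their markers or leading genes. The excitatory neuron-like nuclei include a cluster of 747 led by glycolysis and hypoxia genes such as PDK1 and BNIP3, with 7 of 8 such markers and 3 of 9 excitatory markers at least 2-fold higher than in all other nuclei, while a cluster of 1261 cells with similar leading genes stayed unnamed. The CR-like cells also held markers of dividing cells (MKI67 2.72 transcripts per 10000, against 0.639 in RG-like cells) and radial glia (SOX2 2.61, against 3.36), and the CR-like nuclei markers of inhibitory neurons (GAD1 1.21 and DLX6-AS1 0.686, against 0.0369 and 0.0278 in excitatory neuron-like nuclei). Of the RG-like nuclei, 628 were in a cluster led by heat shock genes such as HSPA8 and HSPH1 and 1021 in a cluster whose leading genes include the early response genes EGR1, FOS and JUN. The choroid plexus-like nuclei also held markers of pigment epithelium and of multiciliated cells, of which 5 of 6 and 6 of 6 were at least 2-fold higher than in all other nuclei (TYR, the pigment enzyme tyrosinase, at 1.11 and RPE65 at 0.386, against at most 0.0182 and 0.0525 in any other named type). In choroid plexus-like cells TYR stood at 0.446 and RPE65 at 0.659, and in hem-like cells at 0.493 and 0.556. Whether the pigment and cilia markers came from other cells or from the choroid plexus-like barcodes themselves was not tested. A cluster of 850 dividing cells was led by SV2C, KANK4 and GRIK1, with no marker of division among its 10 leading genes.

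Ion channels of the TRP family are tetramers that pass cations when opened by heat, lipids, osmotic swelling or signals from receptors, and direct opening of several members by force is debated. PIEZO proteins are large trimers that open when the membrane is stretched. In the brain, the choroid plexus is the epithelium that secretes cerebrospinal fluid and is exposed to its flow and osmolarity, and the cortical hem is the neighbouring midline tissue that supplies WNT and BMP signals. Radial glia divide at the ventricular surface and give rise to intermediate progenitors and neurons, and Cajal-Retzius cells are early neurons, many of them born at the hem.

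TRPM3 is a very long gene (chr9:70529060-71446904, minus strand, GRCh38, GENCODE release 44), and an intron of it holds MIR204, the gene of a microRNA. TRPM1, a TRP channel outside the 7, holds MIR211 in an intron in the same way (chr15:31001065-31161160, minus strand). The mature 5′ strands are shown because miR-204 is a regulatory sequence within the most abundant of the 7 genes and miR-211 its close relative in another TRP channel gene. Both come from RefSeq (GRCh38.p14), with the seed, bases 2 to 8, in capitals.
hsa-miR-204-5p: uUCCCUUUgucauccuaugccu
hsa-miR-211-5p: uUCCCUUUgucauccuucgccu
The seeds are identical, and the 22 bases differ at 2 positions outside the seed. Both microRNA genes had 0 transcripts in the kept barcodes of both libraries. This does not show that the microRNAs were absent, since both genes lie within an intron on the strand of the host gene. How reads there were assigned is not known here. TRPM1 stood at 0.430 transcripts per 10000 in choroid plexus-like nuclei against 0.0168 in all other named nuclei (0.126 against 0.0648 in cells). The part of the pigment epithelium markers given above in this level was not tested. TRPM1 is named here because of MIR211, after its values were seen.

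TRPM3 was the most abundant of the 7 genes, and PIEZO1 the rarest. The kept cells held 112823 TRPM3 transcripts, 34610 of TRPM7, 13872 of TRPC1, 4451 of PIEZO2, 2344 of TRPV4, 1278 of TRPC5 and 685 of PIEZO1, and the kept nuclei held 70247, 13798, 7503, 2618, 1100, 540 and 160 in the same order of genes. TRPM3 thereby ranked 87 among all genes in cells and 69 in nuclei. Levels below are transcripts of the gene per 10000 transcripts of a type, pooled over its barcodes, with an exact Poisson 95% interval that covers counting error only. The SD between sub-libraries (n = 8 for cells, n = 2 for nuclei) measures technical spread. As in any count of RNA per barcode, a level is relative to all other RNA of the same barcode.

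Between genes, levels were also compared per length, and per 100 kb of gene the order changed. Whether the counts scale with gene length was not tested. Over all kept nuclei, TRPM7 had the highest level per 100 kb (1.42 transcripts per 10000), followed by TRPC1 (1.24) and TRPM3 (1.06), with TRPV4 at 0.302, PIEZO2 at 0.0751, PIEZO1 at 0.0318 and TRPC5 at 0.0238. In cells the order of the first 4 genes was the same (1.64, 1.05, 0.781 and 0.296 per 100 kb). In choroid plexus-like nuclei, by contrast, TRPM3 led at 7.51 per 100 kb, and TRPV4 (2.25) stood beside TRPM7 (2.05). Per kb of exon, TRPM3 led in both libraries (0.322 in cells and 0.437 in nuclei), so the place of TRPM3 among the 7 rests on the length that is used. The genes span from 50.3 kb (TRPV4, chr12:109783087-109833406) to 918.0 kb (TRPM3).

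**Figure D1:**
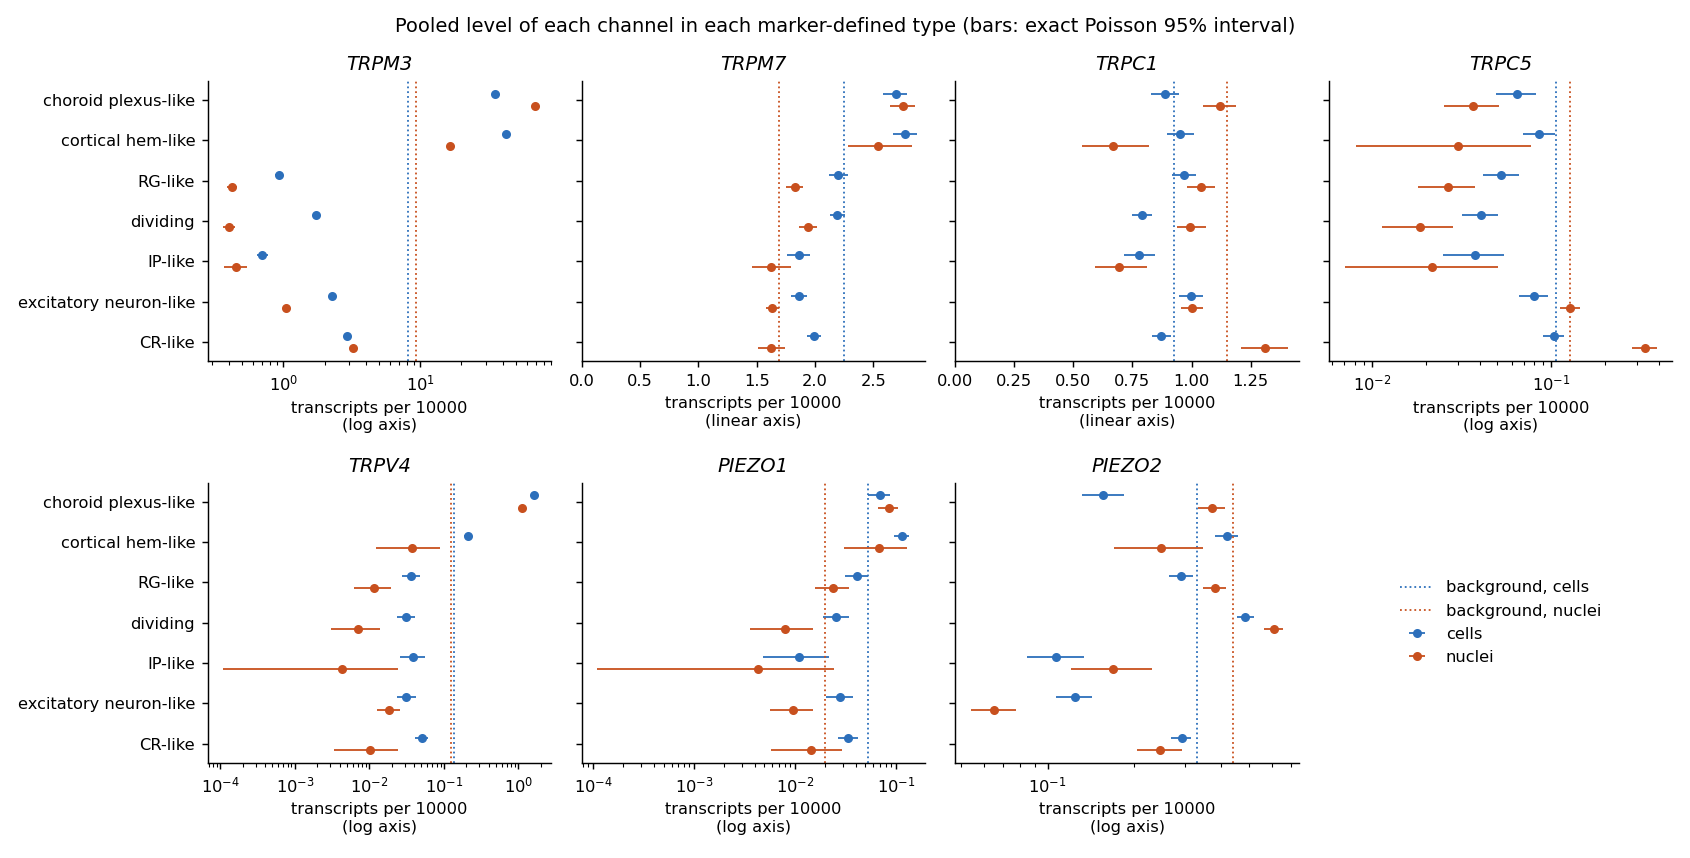
Level of each of the 7 channel genes in 7 marker-defined types, as transcripts per 10000 (log axes, linear from 0 for TRPM7 and TRPC1). Points are pooled levels in cells (blue) and nuclei (orange), bars are exact Poisson 95% intervals, and dotted lines mark the level in background barcodes of 10 to 100 transcripts. TRPM3 is highest in the choroid plexus-like and hem-like types and TRPV4 in the choroid plexus-like type, while TRPM7 and TRPC1 lie in a narrow range in all types.

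TRPM3, a cation channel opened by heat and by the steroid pregnenolone sulfate and long known from choroid plexus, was high in 2 types and low in all others. In nuclei its level was 68.9 (68.4 to 69.5; SD between sub-libraries 1.15) in the choroid plexus-like type, 16.4 (15.7 to 17.1) in the hem-like type, 3.21 (3.05 to 3.37) in CR-like nuclei and 1.04 (0.993 to 1.09) in excitatory neuron-like nuclei. IP-like (0.451), RG-like (0.424) and dividing nuclei (0.401) had the lowest levels, with intervals that overlapped from each to the next. The level in choroid plexus-like nuclei was 172 times that in dividing nuclei.

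In cells the hem-like type was first by pooled level, at 42.6 (42.3 to 43.0, SD 4.80). The choroid plexus-like type followed at 35.2 (34.8 to 35.5, SD 5.64). These SDs cover technical spread only and cannot settle the order. Among first-round wells with at least 20 barcodes of a type, hem-like wells (median 44.2, highest 66.5) overlapped with choroid plexus-like wells (median 38.4, highest 62.3). CR-like cells stood at 2.91, excitatory neuron-like cells at 2.26, dividing cells at 1.73 and IP-like cells at 0.704. The hem-like cells are not a clean hem: all 8 choroid plexus markers were at least 2-fold higher in them than in all other cells, beside 7 of 8 hem markers, and HTR2C, a serotonin receptor of choroid plexus epithelium, stood at 85.0 in them and at 95.3 in choroid plexus-like cells. In nuclei the types were further apart, with HTR2C at 27.3 in the hem-like and 185.0 in the choroid plexus-like type and RSPO2, a WNT enhancer of the hem, at 42.0 and 4.47.

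The choroid plexus-like cells were made up of 3 clusters of unlike TRPM3 level. A cluster of 499 cells led by genes of motile cilia stood at 46.0, a cluster of 113 cells of which 93.8% came from a single well at 19.8, and a cluster of 998 shallow cells (median 1411.5 transcripts) at 12.6. Depth moves with this pooled level: when every cell had the same weight, the choroid plexus-like level was 23.1 in place of 35.2, while in nuclei it was 81.5 in place of 68.9. Against all other named types the ratio was 51.6 in nuclei (counting interval 50.3 to 52.9) and 4.96 in cells (4.89 to 5.03), where the hem-like cells are among the others. With coarser clusters (Leiden resolution 0.5), which leave no hem-like type, the ratio in cells was 18.4.

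After thinning of every barcode to 1000 transcripts, 91.4% of choroid plexus-like nuclei had a TRPM3 transcript (881 of 964, Clopper-Pearson interval 89.4 to 93.1), against 41.5% of hem-like, 23.1% of CR-like and 3.77% of dividing nuclei. The median depth before thinning was 6837.5 transcripts in choroid plexus-like and 4677 in dividing nuclei. In cells the shares were 75.0% of choroid plexus-like, 80.2% of hem-like, 23.2% of CR-like and 8.55% of RG-like cells. These shares depend on depth. Without thinning, 69.1% of CR-like cells, 49.5% of excitatory neuron-like cells and 47.9% of CR-like nuclei had a TRPM3 transcript, beside 84.2% of choroid plexus-like and 92.6% of hem-like cells and 96.8% of choroid plexus-like nuclei.

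Background barcodes, those of 10 to 100 transcripts, had 9.33 TRPM3 transcripts per 10000 in nuclei and 8.20 in cells, and 1000 transcripts drawn from them would hold at least 1 TRPM3 transcript in 60.7% and 56.0% of draws. The low types stayed well under this, at 4.30% (dividing) to 34.4% (CR-like) of the background level in nuclei. TRPM3 was also set against 7 choroid plexus markers (TTR, FOLR1, CLIC6, PRLR, HTR2C, AQP1 and KL). In choroid plexus-like nuclei HTR2C alone made up 185.0 of their summed level of 197.0. In choroid plexus-like cells HTR2C made up 95.3 and TTR 39.5 of 143.0. The ratio thus rests mainly on HTR2C in nuclei and on HTR2C and TTR in cells. Nuclei of the background had 36.3 TRPM3 transcripts per 100 marker transcripts and choroid plexus-like nuclei 35.0. RG-like (43.3), IP-like (43.7) and dividing nuclei (45.9) lay somewhat above the background ratio, and hem-like nuclei (56.6) lay farther above it.

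CR-like nuclei had 152.0 TRPM3 transcripts per 100 marker transcripts and excitatory neuron-like nuclei 97.2. Of the CR-like nuclei, the cluster of 737 with the inhibitory neuron markers had 168.0, at a TRPM3 level of 3.47, and the cluster of 106 led by RELN 58.7, at a level of 1.42. Among the excitatory neuron-like clusters, the one of 890 nuclei whose leading genes include LMO3, SPHKAP and CDH7 had 208.0, at a TRPM3 level of 1.93. The part of background RNA in these levels was not tested. In cells the ratio was 24.6 in choroid plexus-like, 40.5 in hem-like and 37.5 in background barcodes. Excitatory neuron-like cells lay above the background (75.8), among them a cluster of 217 cells with LMO3, SPHKAP and CDH7 among its leading genes (127.0, at a TRPM3 level of 4.09). Dividing cells, pooled, lay above it too (44.8), but their clusters were split. The SV2C-led cluster of 850 had 89.9 at a TRPM3 level of 3.04 and a small cluster led by SPHKAP, MLIP and RALYL had 104.0, whereas the clusters of 772 and 1621 led by mitosis genes had 22.1 and 29.1 and one of 92 held 0 TRPM3 transcripts. CR-like (30.4), dividing IP-like (27.2), IP-like (21.3) and RG-like cells (19.9) lay below it.

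**Figure D2:**
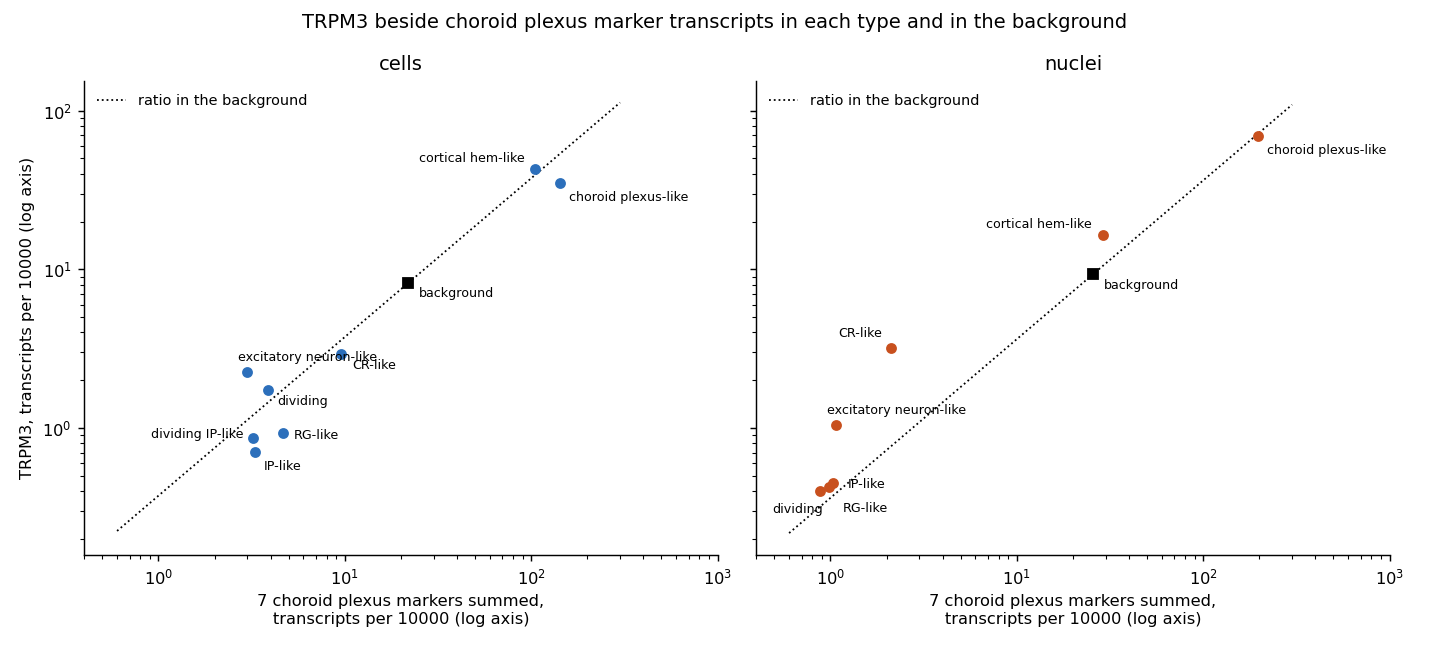
TRPM3 level (vertical) against the summed level of 7 choroid plexus markers (horizontal), both in transcripts per 10000 on log axes, for each named type (circles) and for background barcodes (squares) in cells and nuclei. The dotted line is the ratio found in the background. In nuclei, all named types other than the choroid plexus-like lie above the line, the CR-like (TRPM3 level 3.21) and excitatory neuron-like (1.04) types farthest.

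Wells of the first barcoding round could not be tied to samples or conditions, so a range over wells is a description and not a spread over replicates. Over the 12 wells of nuclei with at least 20 choroid plexus-like nuclei, TRPM3 ranged from 39.0 to 91.3 with a median of 64.8, and over 11 such wells of cells from 18.4 to 62.3 with a median of 38.4. The highest well of any type other than choroid plexus-like or hem-like was 9.67 in cells, in excitatory neuron-like cells, and 5.81 in nuclei, in CR-like nuclei, so these wells did not overlap with those of the choroid plexus-like type.

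**Figure D3:**
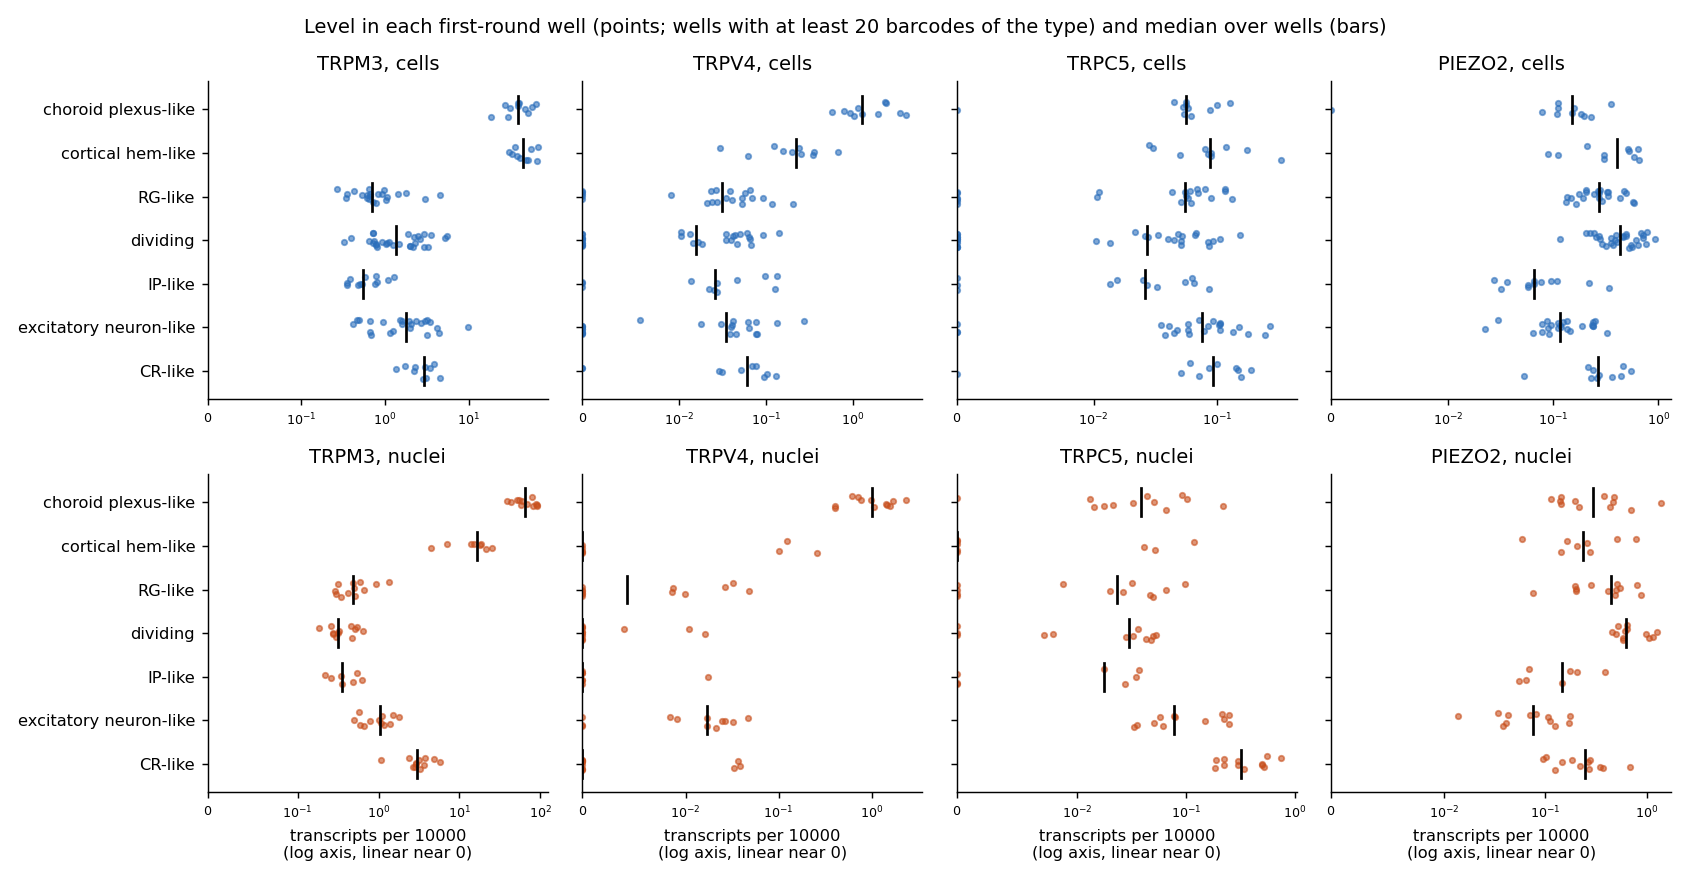
Levels of TRPM3, TRPV4, TRPC5 and PIEZO2 (transcripts per 10000, log axes that are linear near 0) in each first-round well with at least 20 barcodes of a type, for cells (blue) and nuclei (orange). Points are wells, which could not be tied to samples or conditions, and bars are medians over wells. TRPM3 and TRPV4 of choroid plexus-like nuclei lie apart from the wells of RG-like, dividing, IP-like, excitatory neuron-like and CR-like nuclei.

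TRPV4 is an osmosensitive channel of the apical face of choroid plexus epithelium that responds to swelling, warmth and flow. Its level was 1.61 (1.53 to 1.69; SD 0.196) in choroid plexus-like cells and 1.13 (1.06 to 1.20; SD 0.159) in choroid plexus-like nuclei. Hem-like cells stood at 0.210 and hem-like nuclei at 0.0375, and every other named type was at most 0.0505 in cells and 0.0182 in nuclei, below the background levels of 0.137 and 0.124. The ratio to all other named types was 26.8 (24.3 to 29.6) in cells and 85.3 (66.6 to 111.0) in nuclei. With equal weight for every barcode the choroid plexus-like level was 0.933 in cells and 1.02 in nuclei, so that in cells it rested in part on deep barcodes.

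Outside the choroid plexus-like type TRPV4 was too rare to rank in nuclei. IP-like nuclei held 1 TRPV4 transcript, CR-like nuclei 5, hem-like nuclei 5, dividing nuclei 8, RG-like nuclei 14 and excitatory neuron-like nuclei 34. At 1000 transcripts, 8.40% of choroid plexus-like nuclei (81 of 964, 6.73 to 10.3) and 7.76% of choroid plexus-like cells had a TRPV4 transcript, against 0.0471% of dividing nuclei and 0.378% of dividing cells. A draw from the background would give 1.23% in nuclei and 1.36% in cells. Over wells, TRPV4 of choroid plexus-like nuclei ranged from 0.403 to 2.36 (median 1.02, 12 wells), and the highest well of any other type, hem-like, stood at 0.261. In cells the choroid plexus-like wells (0.574 to 4.11, 11 wells) overlapped with the hem-like wells (0.0298 to 0.673, 10 wells).

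Although TRPM3 and TRPV4 were both highest in the choroid plexus-like type of nuclei, they were not distributed alike within it. Finer clusters (Leiden resolution 2) divided nearly all choroid plexus-like nuclei into groups of 487, 363 and 96. TRPM3 differed little between them (63.0, 76.4 and 69.9), while TRPV4 was 0.230 in the first (103 transcripts), 2.36 in the second (913 transcripts) and 0.0799 in the third (5 transcripts). The second group, which held most of the TRPV4, also had the highest HTR2C (265.0, against 137.0 and 48.5) and TTR (6.28, against 2.72 and 0.607), the thyroid hormone carrier of choroid plexus, and the lowest RSPO2 (2.19, against 6.04 and 6.89).

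In cells the cluster with the highest TRPV4 also had the highest TTR and HTR2C, but the clusters below it did not follow that order. The cilia-led cluster, which falls almost wholly into the finer cluster with the highest TTR (50.7) and HTR2C (121.0), had a TRPV4 level of 2.19, the cluster mostly of a single well 0.95, the shallow cluster 0.296 and the hem-like cells 0.210. TTR was lowest in the cluster mostly of a single well (13.3), and it was 25.9 and 22.2 in finer clusters of the shallow cells with TRPV4 levels of 0.0587 and 0.386. The hem-like cells thus had a TRPM3 level like that of the cilia-led cluster (42.6 and 46.0) but a far lower TRPV4 level. Per 1000 choroid plexus marker transcripts they had 1.99 TRPV4 transcripts against 12.1 in the cilia-led cluster. In the cilia-led cluster all 6 markers of multiciliated cells were at least 2-fold higher than in all other cells.

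**Figure D4:**
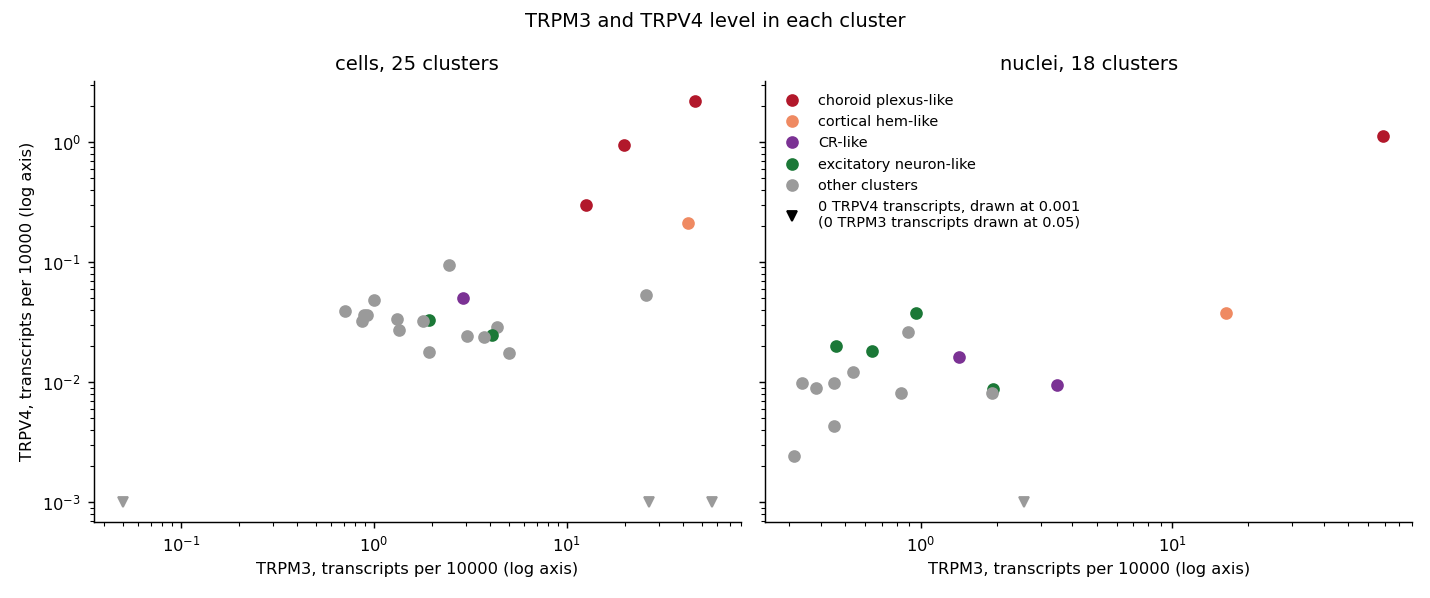
TRPV4 level against TRPM3 level (transcripts per 10000, log axes) in the 25 clusters of cells and the 18 of nuclei, coloured by type. Triangles are clusters with 0 TRPV4 transcripts, drawn at 0.001, and a cluster with 0 TRPM3 transcripts is drawn at 0.05. Hem-like clusters (42.6 in cells, 16.4 in nuclei for TRPM3) have high TRPM3 at a TRPV4 level below that of the choroid plexus-like clusters.

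TRPM7, a channel fused to a protein kinase that serves magnesium and zinc uptake in most cells, was detected in every named type at levels within a ratio of 2. It ranged from 1.86 in excitatory neuron-like and IP-like to 2.77 in hem-like cells, a ratio of 1.49, and from 1.62 in CR-like to 2.75 in choroid plexus-like nuclei, a ratio of 1.70. In both libraries the choroid plexus-like (2.69 and 2.75) and hem-like (2.77 and 2.54) types were the highest, and their intervals lay above those of all other named types. Background levels were 2.25 in cells and 1.69 in nuclei. Within the excitatory neuron-like nuclei, the glycolysis-led cluster of 747 stood at 2.85, and without it the level of the type was 1.46. At 1000 transcripts, between 12.6% (dividing IP-like) and 22.8% (hem-like) of cells had a TRPM7 transcript, against 20.1% for draws from the background.

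TRPC1, a subunit that joins other TRPC proteins in channels driven by receptors and calcium stores, differed as little in cells, from 0.665 in dividing IP-like to 0.997 in excitatory neuron-like cells, a ratio of 1.5. In nuclei the range was wider, from 0.667 (0.536 to 0.821) in hem-like and 0.694 (0.591 to 0.811) in IP-like nuclei to 1.31 (1.21 to 1.41) in CR-like nuclei, a ratio of 1.96. The order of types was not shared by the libraries: CR-like barcodes were first in nuclei and stood at 0.871 in cells, below RG-like (0.970), hem-like (0.953) and choroid plexus-like cells (0.886). At 1000 transcripts, between 6.67% (dividing IP-like) and 10.9% (hem-like) of cells had a TRPC1 transcript, against 8.85% for draws from the background. In nuclei the shares ran from 4.17% (IP-like) to 12.6% (choroid plexus-like), against 10.9%. The part of background RNA in the levels of TRPM7 and TRPC1 was not tested. Neither TRPM7 nor TRPC1 differed from all other named types by 2-fold in any type.

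TRPC5, which forms neuronal channels alone or with TRPC1 and acts in growth cones, was measurable in nuclei in neurons. CR-like nuclei stood at 0.332 (0.283 to 0.387; SD 0.151) and excitatory neuron-like nuclei at 0.127 (0.112 to 0.144), and all other named types were at most 0.0364, with 4 transcripts in hem-like and 5 in IP-like nuclei. The background level was 0.127, the same as in excitatory neuron-like nuclei and lower than in CR-like nuclei. The CR-like nuclei also hold the inhibitory neuron markers given above, whose part in the result was not tested. The ratio to all other named types was 5.47 (4.51 to 6.62) in CR-like and 2.03 (1.70 to 2.43) in excitatory neuron-like nuclei. The latter fell below 2-fold without the highest Scrublet (doublet) scores (1.90), with another clustering seed (1.89), with equal weight for each nucleus (1.45) and without the RG-like clusters led by heat shock and early response genes (1.79). At 1000 transcripts, 3.68% of CR-like nuclei (2.51 to 5.18) and 0.910% of excitatory neuron-like nuclei had a TRPC5 transcript, against 1.26% for draws from the background. Over wells, CR-like nuclei ranged from 0.185 to 0.738 (median 0.322, 12 wells) and excitatory neuron-like nuclei from 0.0332 to 0.25 (median 0.0775, 12 wells), so the wells of the 2 types overlapped.

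Within these types TRPC5 was uneven. The cluster of 890 excitatory neuron-like nuclei marked by LMO3 and CDH7 stood at 0.322 (186 transcripts), whereas the others of that type were at most 0.0474. Of the CR-like nuclei, the cluster of 737 led by NXPH1, GFRA1 and EBF1 stood at 0.368 and the cluster of 106 led by RELN at 0.0807 (5 transcripts). At least 2-fold higher than in all other nuclei were 8 of 9 inhibitory neuron and 5 of 7 Cajal-Retzius markers in the larger cluster, and 0 and 6 in the smaller, with summed inhibitory marker levels of 2.86 and 0.0969. An unnamed cluster of 39 nuclei led by GATA3, SOX14 and GAD2 had the highest level of all clusters, 2.03 (1.22 to 3.17), from 19 transcripts. With Leiden resolution 2 the ratio of CR-like nuclei fell to 1.31 and that of excitatory neuron-like nuclei was 4.54, so the TRPC5 level of each type depended on how these neurons were divided.

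In cells TRPC5 was lower than the background level of 0.106 in every named type, from 0.0375 in IP-like to 0.103 in CR-like cells, and the ratio of CR-like cells to all other named types was 1.72 (1.46 to 2.02). RELN, the defining gene of Cajal-Retzius cells, stood at 2.00 in CR-like cells and at 10.9 in CR-like nuclei, and EBF3, TP73 and NR2F2 of the same marker list were higher in another type of cells (EBF3 0.758 in IP-like against 0.567 in CR-like cells). TRPC5OS, annotated on the opposite strand within TRPC5, had 175 transcripts in cells and 51 in nuclei.

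PIEZO2, the touch and proprioception channel of sensory neurons, had its highest pooled level among the named types in the dividing type of both libraries. Dividing nuclei stood at 0.611 (0.566 to 0.658; SD 0.0592), RG-like nuclei at 0.382, choroid plexus-like nuclei at 0.373, hem-like nuclei at 0.247, CR-like nuclei at 0.246, IP-like nuclei at 0.169 and excitatory neuron-like nuclei at 0.0652 (0.0541 to 0.0778). Dividing nuclei exceeded excitatory neuron-like nuclei by a ratio of 9.37. In cells the highest levels were 0.487 (0.456 to 0.520; SD 0.0821) in dividing and 0.419 (0.382 to 0.458) in hem-like cells, whose intervals overlapped, and the lowest were 0.124 in excitatory neuron-like and 0.107 in IP-like cells. The ratio of dividing to all other named types was 2.65 (2.41 to 2.92) in nuclei and 1.98 (1.83 to 2.15) in cells, and it was 1.93 in nuclei when unnamed barcodes were among the others.

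Background levels were 0.441 in nuclei and 0.330 in cells, so that by pooled level the dividing type exceeded the background and the excitatory neuron-like type lay under it in both libraries. At 1000 transcripts, 6.36% of dividing nuclei (5.36 to 7.48) and 0.689% of excitatory neuron-like nuclei had a PIEZO2 transcript, against 4.32% for draws from the background. In cells the share was 3.67% of dividing cells (3.06 to 4.35), an interval that holds the 3.25% for draws from the background. Hem-like (4.67%) and dividing IP-like cells (4.44%) had higher shares, so the dividing type was not first by share in cells.

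Over 12 wells, PIEZO2 in dividing nuclei ranged from 0.457 to 1.28 and in excitatory neuron-like nuclei from 0.0137 to 0.176, without overlap. Wells of IP-like nuclei (0.0548 to 0.386) also lay below those of dividing nuclei. Wells of choroid plexus-like (0.114 to 1.39), RG-like (0.0755 to 0.873), hem-like (0.0588 to 0.779) and CR-like nuclei (0.0953 to 0.692) overlapped with them. In cells the wells of dividing (0.117 to 0.928) and excitatory neuron-like cells (0.0223 to 0.324) overlapped. Unnamed nuclei, pooled, stood at 0.653 (0.609 to 0.700), level with the dividing nuclei within their intervals. Of these, a cluster of 301 led by PAX3, NTRK2 and GREB1L, with PIEZO2 itself among its 10 leading genes, had the highest PIEZO2 level of all clusters, 3.38 (3.07 to 3.73; 417 transcripts; SD 0.168). At least 2-fold higher in it than in all other nuclei were 4 of 9 radial glia markers and 6 of 8 glycolysis and hypoxia markers.

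PIEZO1, the widely used stretch channel of vessels and red blood cells, was at the edge of what the depth could measure. It was found in 562 of 20178 cells and 137 of 14228 nuclei. Its highest levels were 0.114 (0.0956 to 0.136; 131 transcripts) in hem-like cells, 0.0850 (0.0671 to 0.106; 77 transcripts) in choroid plexus-like nuclei, 0.0693 (66 transcripts) in choroid plexus-like cells and 0.0675 (0.0308 to 0.128; 9 transcripts) in hem-like nuclei. Hem-like and choroid plexus-like were the 2 highest types in both libraries, but in nuclei their intervals overlapped. At 1000 transcripts, 2.14% of hem-like and 0.683% (0.342 to 1.22) of choroid plexus-like cells had a PIEZO1 transcript, against 0.529% for draws from the background. In nuclei the shares were 0.322% (0.00814 to 1.78) and 1.14% (0.571 to 2.03), against 0.198%. At 1000 transcripts per barcode, PIEZO1 was detected in 0 of 843 CR-like nuclei, with a Clopper-Pearson upper limit of 0.437% for the share detected at that depth. In IP-like nuclei it was detected in 0 of 527, with an upper limit of 0.698%. At full depth it was detected in 6 of the 843 and 1 of the 527. The remaining types held 1 to 73 PIEZO1 transcripts each, at levels of at most 0.0414, and the intervals of most neighbours in their order overlapped. In RG-like nuclei PIEZO1 fell from 0.0239 to 0.00449 when the clusters led by heat shock and early response genes, were left out. CTU2 and lncRNAs on the opposite strand overlap PIEZO1 (5 genes in all).

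The 7 channels were also counted against all genes, type by type. At least 2-fold above all other named types were 2 of the 7 in choroid plexus-like cells (TRPM3 and TRPV4), where 8.38% of 25423 genes with at least 50 transcripts passed the same limit, and 3 in choroid plexus-like nuclei (TRPM3, TRPV4 and PIEZO1), where 11.3% of 19465 genes did. In hem-like barcodes 2 passed in cells (TRPM3 and PIEZO1; 9.15% of all genes) and 1 in nuclei (PIEZO1; 7.70%). In dividing barcodes 0 passed in cells (2.73%) and 1 in nuclei (PIEZO2; 5.54%). In excitatory neuron-like barcodes 0 passed in cells (4.41%) and 1 in nuclei (TRPC5; 7.28%), and in CR-like barcodes 0 passed in cells (1.16%) and 1 in nuclei (TRPC5; 6.26%). In RG-like barcodes 0 passed in cells (1.64%) and 0 in nuclei (7.13%), in IP-like barcodes 0 in cells (2.55%) and 0 in nuclei (3.51%), and in dividing IP-like cells 0 (5.61%).

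At least 2-fold below all other named types were 0 of the 7 in choroid plexus-like cells (10.4% of all genes) and 1, TRPC5, in choroid plexus-like nuclei (12.7%). In hem-like barcodes 0 passed in cells (5.65%) and 2 in nuclei (TRPC5 and TRPV4; 19.0%). TRPM3 and TRPV4 passed in every type other than the choroid plexus-like and hem-like. They were the 2 that passed in RG-like (8.75%), dividing (10.9%), dividing IP-like (27.4%) and CR-like cells (2.58%) and in CR-like nuclei (10.7%). With them passed PIEZO2 in excitatory neuron-like cells (3 of 7; 14.8%), PIEZO1 and PIEZO2 in IP-like cells (4; 15.3%) and in excitatory neuron-like nuclei (4; 18.3%), TRPC5 in RG-like nuclei (3; 11.5%), and TRPC5 and PIEZO1 in dividing (4; 17.9%) and IP-like nuclei (4; 22.6%). Where choroid plexus-like barcodes are among the others, a low ratio of TRPM3 or TRPV4 follows from their high level there. With counts this small, the shares of the 7 genes were not ranked against those of all genes.

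Related genes from fixed lists were counted against all other named types, and the levels of single genes of these lists are set against all other barcodes. Of 22 other TRP channels, 20 in cells and 14 in nuclei had at least 50 transcripts. In the choroid plexus-like type 1 of these was at least 2-fold higher in each library, MCOLN3 in cells and TRPM1 in nuclei, where 8.38% and 11.3% of all genes were, and the median ratio was 0.821 in cells and 0.714 in nuclei (0.899 and 0.897 over all genes). Of 10 other mechanically gated channels, 1 was at least 2-fold higher in the choroid plexus-like type of each library. At least 2-fold lower there were 1 in cells and 4 in nuclei, where 10.4% and 12.7% of all genes were. The median ratio was 0.727 in cells and 0.584 in nuclei. KCNK10 was lower there than in all other barcodes in both libraries. The higher gene, TMEM63A, an osmotically and mechanically opened cation channel, was higher than in all other barcodes in the choroid plexus-like type (2.68-fold in cells, 2.83-fold in nuclei) and in the hem-like type (2.19-fold and 2.03-fold). Against all other named types it stayed at least 2-fold higher in choroid plexus-like barcodes and in hem-like nuclei, but not in hem-like cells (1.92-fold), and it was 2.11-fold higher in RG-like nuclei and 1.29-fold in RG-like cells. TMEM63C, of the same family, was lower in both libraries in dividing barcodes (0.140 against 0.387 in cells, 0.0493 against 0.407 in nuclei) and in RG-like barcodes (0.158 against 0.378 and 0.114 against 0.398).

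Among 7 channel partners, MDFIC, a protein that binds PIEZO channels and slows their closing, was higher in dividing barcodes than in all others in both libraries. Its level was 0.529 against 0.257 in cells (2.06-fold) and 0.659 against 0.280 in nuclei (2.35-fold). Against all other named types it was 1.95-fold in cells, short of 2-fold, and 2.75-fold in nuclei. In excitatory neuron-like barcodes it was 0.0498 in cells and 0.0363 in nuclei. The study draws TRPM3, TRPC1 and TRPV4 beside other readouts of mechanical response. Of 6 such genes outside the 7 channels, a list that is not independent of these data, WWTR1, a transcriptional partner of the Hippo pathway, was higher in the choroid plexus-like type (0.976 against 0.278 in cells, 1.20 against 0.128 in nuclei). NEAT1, a nuclear long noncoding RNA, was as well (15.1 against 2.69 in cells and 47.8 against 3.08 in nuclei). Both were also higher in the hem-like type, WWTR1 at 1.20 against 0.252 in cells and 0.675 against 0.255 in nuclei and NEAT1 at 17.7 against 2.33 and 64.3 against 7.65. YAP1, the other Hippo partner, was lower in excitatory neuron-like barcodes (0.302 against 1.44 in cells and 0.151 against 1.80 in nuclei). So were WWTR1, NEAT1, VCL and VIM in both libraries. Against all other named types, 5 of the 6 genes were at least 2-fold lower there in each library, where 14.8% and 18.3% of all genes were. The remaining gene, CDH1, was at least 2-fold higher there in nuclei (level 0.0513), where 7.28% of all genes were, but not in cells (level 0.0642). WWTR1 and NEAT1 were also lower in dividing and IP-like barcodes of both libraries. In choroid plexus-like nuclei, but not cells, YAP1 was at least 2-fold higher than in other named types.

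The genes most alike in pattern were taken as those with the highest Pearson correlation of log2 levels (pseudocount 0.01) over clusters, as a description. All clusters of a library share its background RNA, but they differ in depth. The median of a cluster ran from 1165 to 9092 transcripts in cells and from 1896 to 10267 in nuclei. Over 18 clusters of nuclei, TRPM3 was most like CPXM2 (r = 0.953), HTR2C (0.913), PCAT1, LAMB1 and LGI1, and over 25 clusters of cells most like PCAT1 (0.929), CADPS2, WLS, COLEC12 and CACNB2, with PCAT1 in both lists. TRPV4 was most like SLC16A6 (0.959), NFATC2, DAB2, ABCA4 and LINC01202 in nuclei, and in cells most like SLC24A4 (0.975), CCDC60, SLC28A3 and the cilia genes TEKT1 and DNAAF1. PIEZO2 was most like RHOJ in nuclei (0.928), followed by LINC01508 and NES, the intermediate filament gene of neural progenitors. In cells PIEZO2 was most like NAA38 (0.920), NOTCH3 (0.909), CAD (0.908), TMEM218 (0.896) and RHOJ (0.893), with RHOJ in both lists. TRPC5 was most like CHRM2 (0.903), CDH22, CACNA2D3, DSCAM and GLRA2 in nuclei. These lists change with the clusters: at resolution 2, between 0 and 3 of the 5 genes recurred for each channel, with 3 for TRPV4 in both libraries and for TRPM3 in nuclei. TRPM3 and TRPV4 had r = 0.73 with each other in nuclei and 0.43 in cells.

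For TRPM7 and TRPC1, which differed by less than 2-fold between named types of a library, the most alike genes were LARP4B (0.887) and KIAA0825 (0.824) in nuclei and PPP2R5A (0.787) and C11orf54 (0.982) in cells. In cells, TRPC1 had 0 transcripts in a cluster of 33 cells from a single well and was between 0.523 and 1.49 in all other clusters, so that its correlation there rests on that cluster. The part of that cluster in the correlations of the other channels in cells was not tested. PIEZO1 was compared in cells alone, where IFNLR1 (0.922) and WNT3 (0.918) were most alike.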

How the data were processed

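A split-seq library of cells and a library of nuclei were analysed, each as 1 sample. The authors demultiplexed reads into 8 and 2 sub-libraries, allowing 1 mismatch, ran the split-pipe pipeline of Parse Biosciences and deposited counts of transcripts for every gene and barcode on GRCh38, without normalization. Their doublet and background removal is not in these counts. The 7 genes, gene lists, markers and alternatives were chosen with earlier results of these data known.

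Barcodes were kept by depth, genes and mitochondrial share as given above, and 99 kept barcode names occur in both libraries. Sums of counts equalled the deposited metadata. Quartiles of depth were 1427 and 7223.75 in cells and 2275 and 6191.25 in nuclei, so single genes are often missed, and intervals and limits cover counting error only. Scrublet (expected 5% and 3%) marked 0 barcodes, and none was removed. Clusters were built with scanpy 1.11.5 on 2000 variable genes, without the 7 genes and the lists, with 30 components, 15 neighbours and Leiden resolution 1 (igraph 0.11.9, seed 0). A type name needed at least 3 markers, and most of its list, at 1.5 times the mean of other barcodes and in 10% of the cluster. Dividing clusters needed 5 of 8 G2/M markers. Clusters that met no rule stayed unnamed, and these limits were set after the clusters were seen.

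Levels are pooled transcripts per 10000. Shares were taken after thinning to 1000 transcripts, with no thinning, thinning to 2000 and thinning of deep barcodes as alternatives. Background barcodes held 10 to 100 transcripts (1022725 in cells and 167580 in nuclei). Named genes are the 7, list genes past 2-fold against all other barcodes in both libraries, and the 5 genes most alike in pattern among genes of at least 500 transcripts. Genes named outside this rule, such as cluster leaders and markers, were chosen after their values were seen. The ratio step was run on simulated Poisson counts with known folds. These held no spread between wells and no background RNA, so the run checks the calculation alone. Further software was matplotlib 3.10.9, scikit-learn 1.9.0, scipy 1.17.1, anndata 0.12.19, numpy 2.4.6 and pandas 2.3.3 under Python 3.11.15. Strand use in counting is not given in the sources used here.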

Additional observations from a re-analysis of the deposited data

How the results depend on the processing

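No paired analysis was possible because each library is 1 sample. Of 11 ratios at 2-fold or above, all 11 stayed there with at most 10% mitochondrial transcripts and without the well that held most barcodes of the type. All 11 also stayed without cells or nuclei of over 50000 transcripts, an alternative chosen after seeing the data. A limit of genes over transcripts below 0.9 left all 105 ratios the same and so is no check of them. Without the glycolysis-led cluster of excitatory neuron-like nuclei, also chosen after seeing the data, all 7 such ratios of nuclei stayed, and 6 of the 7 did without the RG-like clusters of nuclei led by heat shock and early response genes, an alternative chosen likewise. The number of the 7 genes at least 2-fold above other named types changed as follows, with the share of all genes past the same limit under that setting in brackets. In choroid plexus-like cells it rose from 2 (8.38%) to 3 (PIEZO1) with resolutions 0.5 (12.9%) and 2 (9.98%), and in hem-like cells from 2 (9.15%) to 3 (PIEZO2) with resolution 2 (14.7%). In dividing cells it rose from 0 (2.73%) to 1 (PIEZO2, 2.85 to 3.40%) with more than 5000 transcripts, without the highest Scrublet scores, with Leiden resolution 2, with seed 1, without barcodes over 50000 transcripts and without the largest well. In CR-like cells it rose from 0 (1.16%) to 1 (TRPC5, 2.65 to 11.2%) with resolutions 0.5 and 2, seed 1, equal weight of barcodes and without barcodes over 50000 transcripts. In hem-like nuclei it was 0 in place of 1 (7.70%) with more than 5000 transcripts, 3 with resolution 2 and 2 with equal weight (7.49 to 9.37%). It was 0 in place of 1 in dividing nuclei against all other barcodes (4.05%, from 5.54%), in excitatory neuron-like nuclei without the highest Scrublet scores, with seed 1, with equal weight and without the clusters led by heat shock and early response genes (7.27 to 7.89%, from 7.28%), and in CR-like nuclei with resolution 2 (8.65%, from 6.26%). A rise in the count cannot be told from a general rise in calls. The cause was not tested. Of 105 shares of barcodes, 98 moved with no thinning, 71 with thinning to 2000 transcripts and 39 with barcodes over 5000 transcripts alone. Of 105 levels, 37 moved with equal weight of barcodes and 34 with resolution 2, and of 105 ratios 42 and 35 did. With the median over wells in place of the pooled level, 46 levels moved and 52 did not. With resolution 0.5, 33 ratios moved and 51 did not. The hem-like type is absent at resolution 0.5, so its values have no counterpart there. Ratios of the choroid plexus-like type to other named types ranged from 3.86 to 18.4 in cells and from 30.4 to 69.9 in nuclei for TRPM3, and from 16.3 to 31.3 and from 60.4 to 106.0 for TRPV4. The TRPM3 ratio of hem-like cells, 7.75 in the main setting, ranged from 2.48 to 9.72. Counts of 1 to 34 transcripts per type limit PIEZO1 and TRPV4 in named nuclei other than the choroid plexus-like, and wells that could not be tied to samples limit any reading by condition.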

Other observations

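In cells, 3 small unnamed clusters, each mostly from a single well, also had high TRPM3. A cluster of 33 cells led by RSPO3, CYP1B1 and EBF3 and drawn wholly (100%) from 1 well stood at 56.4 TRPM3 transcripts per 10000. A cluster of 100 cells led by BMP3, FZD10 and DCT stood at 25.8, and a cluster of 88 cells led by MYOF, NTNG1 and LRP1B at 26.6. The summed level of the 7 choroid plexus markers was 79.3 in the RSPO3-led, 10.6 in the BMP3-led and 3.59 in the MYOF-led cluster. TRPV4 had 4 transcripts in the BMP3-led cluster and 0 in the others. The BMP3-led cluster also had the highest PIEZO1 level of any cluster of cells (0.266, from 20 transcripts) and a PIEZO2 level of 0.864.

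An unnamed cluster of 1125 cells, spread over 47 wells and led by DOCK2, CCDC26 and RUNX1, had the highest TRPC5 level of any cluster of cells (0.252, from 319 transcripts). PIEZO2 stood at 0.458, TRPV4 at 0.0948 and PIEZO1 at 0.0735 in it. At least 2-fold higher in it than in all other cells were 5 of 5 microglia markers, 4 of 6 endothelial markers and 5 of 6 markers of neural crest or sensory neurons, at summed levels of 0.172, 0.574 and 0.143. The part of these cells in the pooled levels of the channels was not tested.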
